A study of Mus musculus with 2 samples.

Results

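Tnfrsf26, Tnfrsf22 and Tnfrsf23 are 3 neighbouring genes of the tumour necrosis factor (TNF) receptor superfamily on mouse chromosome 7. They were taken by symbol from a table of 22216 gene rows, and each had 1 row. The table gives RPKM values, which correct read numbers for the length of the gene and the depth of the library, for whole spleen of 2 kinds of mice. The NOD.L7 library and the NOD.g7 library were each made from spleens of 3 mice pooled before sequencing, so there was 1 library per genotype. NOD stands for non-obese diabetic, an inbred mouse strain prone to autoimmune diabetes. The series title writes NOD.Lc7, and the column headed NOD.LC7 was taken as NOD.L7. The column headed NOD was taken as NOD.g7. The labels give no age, sex or treatment, and do not say what g7 and L7 stand for or which part of the genome differs. No spread between mice or libraries can be measured with such a design, so no p-value is given, and the differences below hold for these 2 pools alone. The 3 genes were chosen by their RPKM values in these same libraries, with Tnfrsf26 and Tnfrsf22 far lower in NOD.L7, so their levels are given as a description.

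Receptors of the TNF superfamily bind ligands of the TNF superfamily through cysteine-rich repeats outside the cell. Some, such as Fas and the receptor for the ligand TRAIL, carry a cytoplasmic death domain that recruits the adaptor FADD and caspase-8. Decoy receptors bind a ligand without passing on that signal. In the mouse, the products of Tnfrsf22 and Tnfrsf23 are known as decoy receptors for TRAIL, and neither has a death domain. The product of Tnfrsf26 is a related receptor that also lacks a death domain.

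The coding sequences were compared first, because reads of near-identical genes cannot be assigned with certainty. In GENCODE M21 all 3 genes lie on the minus strand. The longest coding sequence has 612 bases in Tnfrsf26, 594 in Tnfrsf22 and 528 in Tnfrsf23. A stretch of 120 coding bases is shown for Tnfrsf22 and Tnfrsf23, to show how alike the 2 genes are. It is the stretch of that length in which they differed least, among those without a gap when the 3 genes were aligned. It starts at base 162 of the coding sequence in Tnfrsf22 and base 132 in Tnfrsf23. Capitals mark the 8 positions at which the 2 genes differ.
Tnfrsf22: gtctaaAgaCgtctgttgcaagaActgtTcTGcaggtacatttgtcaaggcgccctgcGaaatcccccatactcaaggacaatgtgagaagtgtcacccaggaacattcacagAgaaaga
Tnfrsf23: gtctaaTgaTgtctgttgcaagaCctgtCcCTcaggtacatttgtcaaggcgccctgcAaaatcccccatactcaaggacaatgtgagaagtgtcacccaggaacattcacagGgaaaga

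Tnfrsf22 and Tnfrsf23 had the same base at 112 of these 120 positions. Over the whole coding sequence, Tnfrsf22 and Tnfrsf23 were 90.7% identical over 528 aligned bases, with 102 bases as the longest run without a difference. Tnfrsf26 was 59.9% identical to Tnfrsf22 and 58.9% to Tnfrsf23, and its longest identical run with either was 10 bases. Of all stretches of 50 bases in the longest transcript, 27.7% in Tnfrsf22 and 23.3% in Tnfrsf23 also occurred in a transcript of another gene on either strand. For stretches of 100 bases these shares were 16.3% and 11.6%. Of the shared 50-base stretches, 724 of 1142 in Tnfrsf22 and 719 of 769 in Tnfrsf23 occurred in the other gene of this pair. The rest occurred only in genes outside the cluster. Tnfrsf26 had no 50-base stretch in common with a transcript of any other gene in GENCODE M21. A read of that length that matched the Tnfrsf26 transcript exactly would thus match no other transcript in this annotation. The division of reads between Tnfrsf22 and Tnfrsf23, and between them and the other genes that share stretches, is uncertain.

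Tnfrsf26 was listed at an RPKM of 0 in the NOD.L7 library, against 11.0 in the NOD.g7 library. Tnfrsf22 was at 1.22 in NOD.L7 and 4.15 in NOD.g7. Tnfrsf23 was at 0.0866 in NOD.L7 and 0.758 in NOD.g7. All 3 were thus lower in NOD.L7, and the order of the genes differed between the libraries, since Tnfrsf26 had the highest level of the 3 in NOD.g7 and the lowest in NOD.L7. The summed RPKM of the 3 genes was 1.31 in NOD.L7 and 15.9 in NOD.g7.

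**Figure D1:**
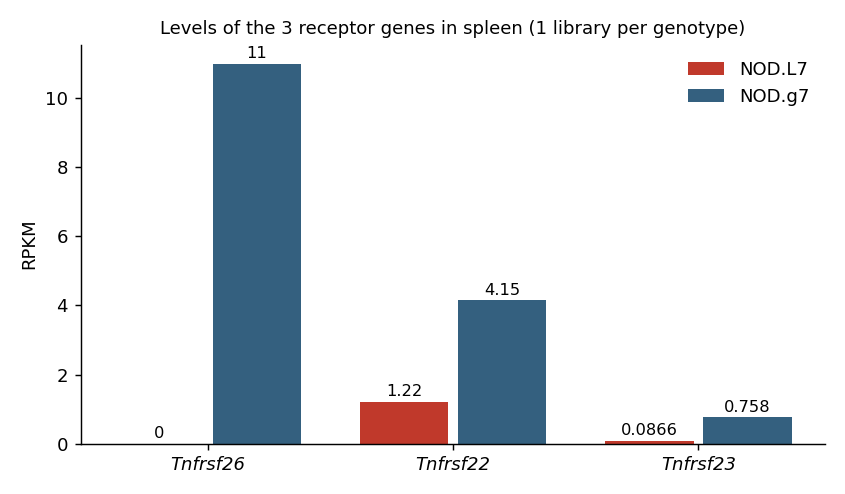
RPKM (linear axis from 0) of the 3 receptor genes, with NOD.L7 at the left of each pair and NOD.g7 at the right; each bar is 1 library. Tnfrsf26 is listed at 0 in NOD.L7 against 11.0 in NOD.g7, and the other 2 genes are also lower in NOD.L7.

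The depth behind these values was recovered from the steps of the RPKM values, which rest on 12.1 Gb of mapped sequence in NOD.L7 and 9.13 Gb in NOD.g7. An RPKM value times that depth is the mean number of times each base of the gene model was read. Tnfrsf26 had a mean coverage of 0 in NOD.L7, the deeper library, and 100.4 in NOD.g7. Coverage of Tnfrsf22 was 14.7 in NOD.L7 and 37.9 in NOD.g7. Coverage of Tnfrsf23 was 1.05 in NOD.L7 and 6.91 in NOD.g7, so its NOD.L7 value rests on few reads.

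For Tnfrsf22 the NOD.L7 to NOD.g7 fold was 0.293, or 3.41-fold lower, with a 95% counting interval (Clopper-Pearson, from approximate fragments) of 0.256 to 0.335. For Tnfrsf23 the fold was 0.114, or 8.75-fold lower, with an interval of 0.0650 to 0.190. The intervals of the 2 genes did not overlap, but they cover counting error only and leave out variation between mice and the division of shared reads. No fold is given for Tnfrsf26, because its value in NOD.L7 was listed at 0 and the deposited table holds no read counts. A listed 0 was not always a sign of little RNA, since Hba-a1, an alpha-globin gene of red cells that has a near-identical copy, was listed at 0 in both libraries. Shared stretches were not searched for in Hba-a1. Tnfrsf26 had no 50-base stretch in common with a transcript of another gene in GENCODE M21, and it was read in NOD.g7. Why Tnfrsf26 was listed at 0 in NOD.L7 was not tested.

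With 1 added to every RPKM, which makes the differences of low genes look smaller, the log2 ratios of NOD.L7 over NOD.g7 were -3.58 for Tnfrsf26, -1.22 for Tnfrsf22 and -0.69 for Tnfrsf23. Genes that reached an RPKM of 1 in one or both libraries were kept for comparison, and the size rule asked for a log2 ratio of 1 or more in either direction. Of 11141 kept genes, 79 (0.709%) passed, of which 36 (0.323% of kept genes) were lower and 43 (0.386%) higher in NOD.L7. Tnfrsf26 and Tnfrsf22 were kept and passed, with the lowest and the 17th lowest ratio of all kept genes. Tnfrsf23 was under an RPKM of 1 in both libraries and was not kept. These 3 genes were picked for such differences, so nothing is read from 2 of them passing.

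**Figure D2:**
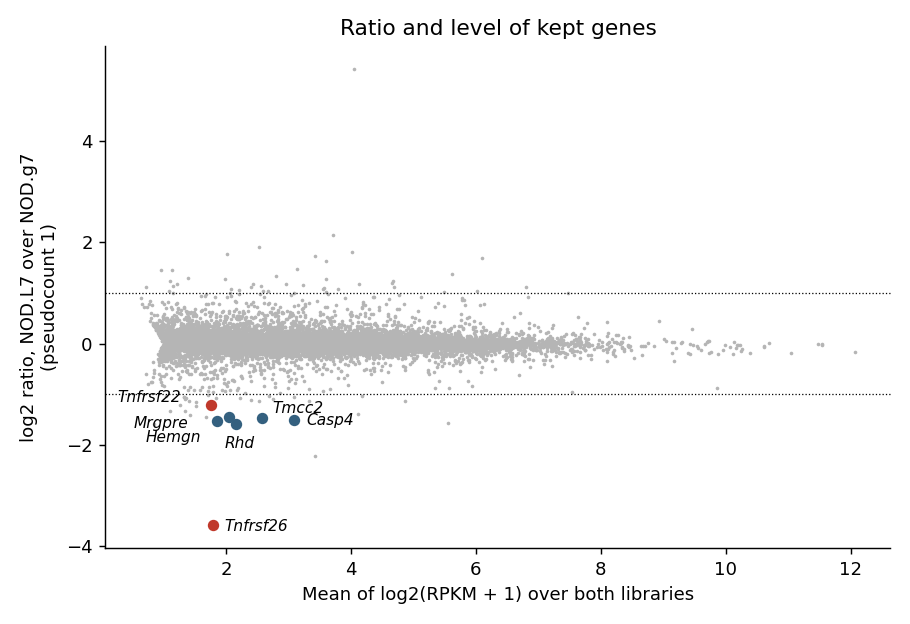
log2 ratio of NOD.L7 over NOD.g7 (pseudocount 1) against the mean of log2(RPKM + 1) over both libraries for the kept genes reported here; red points are Tnfrsf26 and Tnfrsf22, blue points 5 of the genes most like Tnfrsf26, and dotted lines the size rule. Tnfrsf26 lies at -3.58, below every other gene shown.

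A listed 0 in NOD.L7 beside a clear level in NOD.g7 occurred for 1 kept gene, Tnfrsf26, and no kept gene was listed at 0 in NOD.g7. In all, 586 rows were listed at 0 in NOD.L7 and above 0 in NOD.g7, with a median of 0.0120 in NOD.g7. After Tnfrsf26 the highest NOD.g7 value among them was 0.667, for Ctrb1, which encodes the pancreatic enzyme precursor chymotrypsinogen B. In the other direction, the highest NOD.L7 value of a row listed at 0 in NOD.g7 was 0.496.

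The 6 genes most like Tnfrsf26 were the rows with a NOD.g7 RPKM of 5 to 22 and the lowest NOD.L7 to NOD.g7 ratio after its own, a likeness over 2 libraries only. Those reported here are Mrgpre, Rhd, Hemgn, Tmcc2 and Casp4, with ratios of 0.219 to 0.305. Mrgpre, a Mas-related G protein-coupled receptor gene, was at 1.13 in NOD.L7 and 5.14 in NOD.g7. Casp4, an inflammatory caspase gene, was at 4.04 in NOD.L7 and 13.2 in NOD.g7. Rhd, a blood group antigen gene, was at 1.56 in NOD.L7 and 6.71 in NOD.g7. Hemgn, which encodes a nuclear protein of erythroid cells, was at 1.49 in NOD.L7 and 5.78 in NOD.g7. Each of these 5 was still read in NOD.L7, whereas Tnfrsf26 was listed at 0. Slc4a1, an erythroid marker gene, lay just above that NOD.g7 range, at 3.97 in NOD.L7 and 22.1 in NOD.g7. Its log2 ratio of -2.22, with a pseudocount of 1, was lower than that of any of these 5.

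The 3 genes lie side by side in the table, which uses genome build mm9. Tnfrsf26 spans chromosome 7, 150793590 to 150813750, Tnfrsf22 spans 150822630 to 150835543 and Tnfrsf23 spans 150851712 to 150871777. The cluster covers 78.2 kb, with 8.88 kb between Tnfrsf26 and Tnfrsf22 and 16.2 kb between Tnfrsf22 and Tnfrsf23. The neighbour on the proximal side is Cars, a cysteinyl-tRNA synthetase gene 7.64 kb away, and the neighbour on the distal side is Osbpl5, an oxysterol-binding protein family gene 2.89 kb away. Cars was at 9.26 in NOD.L7 and 11.8 in NOD.g7, a log2 ratio of -0.32. Osbpl5 was at 11.9 in NOD.L7 and 10.8 in NOD.g7, a log2 ratio of 0.14. Both neighbours were well read in both libraries, and neither passed the size rule.

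Further out, the difference was not continuous. Nap1l4, a nucleosome assembly protein family gene 58.6 kb proximal, was at 60.5 in NOD.L7 and 58.5 in NOD.g7. On the distal side Mrgprg was listed at 0 in both libraries, and Mrgpre, 92.5 kb away, had a log2 ratio of -1.53 and passed the size rule. Beyond Mrgpre, Nadsyn1, which encodes NAD synthetase, was at 8.18 in NOD.L7 and 6.69 in NOD.g7. Dhcr7, which encodes the last enzyme of one route of cholesterol synthesis, was at 10.5 in NOD.L7 and 11.3 in NOD.g7. Cdkn1c, Slc22a18 and Phlda2, imprinted genes of the same region, stayed under an RPKM of 0.5 in both libraries, and Cdkn1c, a cell cycle inhibitor gene, was at 0.162 in NOD.L7 and 0.385 in NOD.g7. By the plain fold of NOD.L7 over NOD.g7, Tnfrsf22, Tnfrsf23 and Mrgpre were at 0.293, 0.114 and 0.219, and Cars, Nap1l4, Osbpl5, Nadsyn1 and Dhcr7 ran from 0.783 for Cars, which was also lower in NOD.L7, to 1.22 for Nadsyn1.

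**Figure D3:**
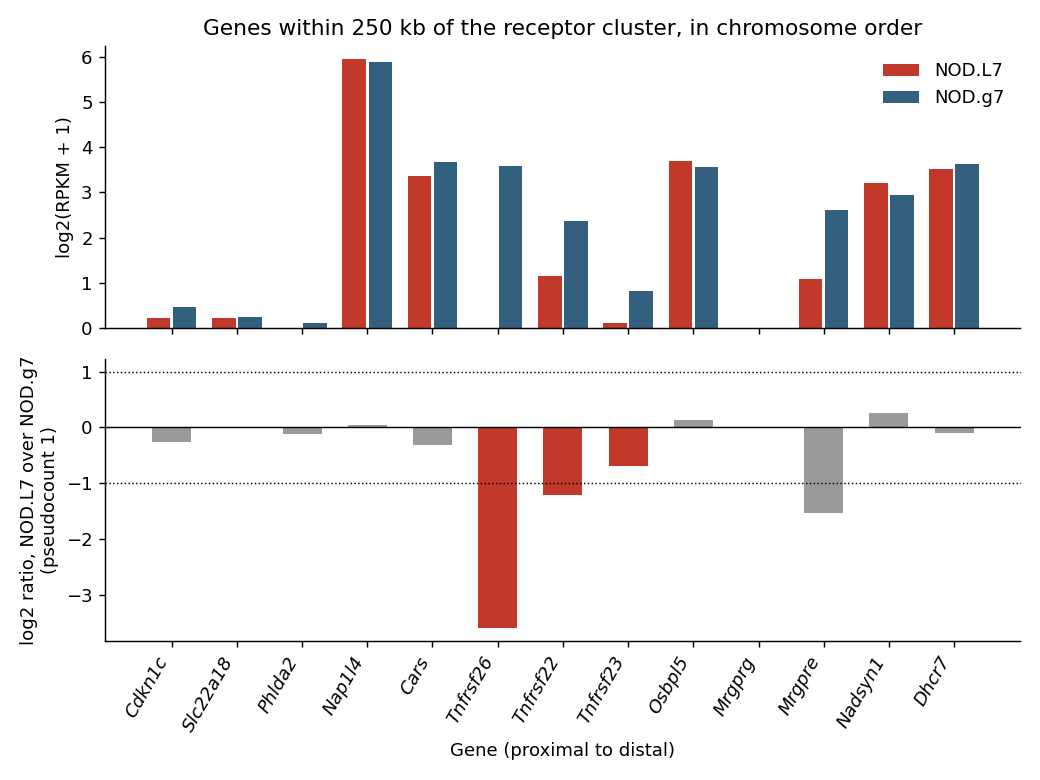
Genes within 250 kb of the cluster in chromosome order: log2(RPKM + 1) in NOD.L7 (left bar) and NOD.g7 (right bar) above, and the log2 ratio of NOD.L7 over NOD.g7 below, with the 3 receptor genes in red and the size rule dotted. Cars and Osbpl5 on either side have ratios of -0.32 and 0.14.

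Within 1 Mb of the cluster there were 27 other rows, of which 12 were kept. Of these 12, 6 were lower and 6 higher in NOD.L7, their median log2 ratio was 0.02, the same as over all kept genes (0.02), and 2 passed the size rule, Mrgpre and Trpm5. Over all kept genes 0.709% passed, and over those of chromosome 7, 17 of 867 (1.96%). These 17 include Tnfrsf26, Tnfrsf22, Mrgpre and Trpm5, so the share of chromosome 7 is not a separate background. Trpm5, an ion channel gene, was at 1.41 in NOD.L7 and 0.113 in NOD.g7, a 12.5-fold higher value (counting interval 8.09 to 20.5), 513 kb proximal. Kcnq1, a potassium channel gene 181 kb proximal, was under an RPKM of 1 in both libraries, at 0.211 in NOD.L7 and 0.00754 in NOD.g7. Proximal to Trpm5, Cd81, a tetraspanin of lymphocytes, was at 156 in NOD.L7 and 82.3 in NOD.g7 (log2 ratio 0.91). Tspan32, another leukocyte tetraspanin gene, went the other way, at 34.0 in NOD.L7 and 63.0 in NOD.g7 (log2 ratio -0.87). Genes higher and lower in NOD.L7 were therefore interspersed along the region.

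The wider TNF receptor superfamily was measured in full, with a row for each of the 28 genes listed. By level, Tnfrsf26 held place 10 of the 28 in NOD.g7 and Tnfrsf22 place 16, and in NOD.L7 Tnfrsf22 held place 19. Edar was the other receptor gene listed at 0 in NOD.L7, and it was at 0 in NOD.g7 too. Apart from the cluster, 18 receptor genes were kept and 0 passed the size rule, against 0.709% of all kept genes. Of these 18, 12 were higher and 6 lower in NOD.L7. Their median log2 ratio was 0.11, against 0.02 over all kept genes, of which 43.8% were lower. The lowest after the cluster was Cd40, a costimulatory receptor of B cells and other antigen-presenting cells, at 34.2 in NOD.L7 and 47.5 in NOD.g7 (log2 ratio -0.46). The highest were Ltbr, the lymphotoxin beta receptor, at 7.19 in NOD.L7 and 4.33 in NOD.g7 (0.62), Tnfrsf1a, the main receptor of TNF (0.55), and Tnfrsf21, a death domain receptor (0.49).

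The mouse has 1 TRAIL receptor with a death domain, encoded by Tnfrsf10b. It was at 1.32 in NOD.L7 and 1.05 in NOD.g7, a fold of 1.26 (counting interval 1.02 to 1.55). In NOD.g7 the decoy gene Tnfrsf22 was thus above Tnfrsf10b on the RPKM scale, at 4.15 against 1.05. In NOD.L7 Tnfrsf22 was at a similar level, at 1.22 against 1.32. Tnfrsf22 was chosen for its lower value in NOD.L7 and its share of reads is uncertain, so nothing further is read from this. Osteoprotegerin, a secreted decoy receptor that can also bind TRAIL, is encoded by Tnfrsf11b, which was at 0.0235 in NOD.L7 and 0.0389 in NOD.g7. Tnfrsf11a, which encodes the receptor RANK, was at 0.832 in NOD.L7 and 0.648 in NOD.g7. Neither Tnfrsf11a nor Tnfrsf11b was kept.

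Among the ligands, TRAIL itself is encoded by Tnfsf10, which was at 4.06 in NOD.L7 and 4.94 in NOD.g7, a fold of 0.820 (counting interval 0.756 to 0.890). Its log2 ratio, with the pseudocount of 1, was -0.23. Fasl, the ligand of Fas on cytotoxic lymphocytes, had a similar log2 ratio of -0.22 and a fold of 0.814, and Tnf had a log2 ratio of -0.14. The highest were Tnfsf9, the ligand of 4-1BB, at 2.78 in NOD.L7 and 1.42 in NOD.g7 (0.64), and Tnfsf11, the ligand of RANK, at 3.23 in NOD.L7 and 1.75 in NOD.g7 (0.62). Tnfsf14, the ligand LIGHT, had a ratio of 0.57. Of the 12 kept ligand genes 7 were higher and 5 lower in NOD.L7, and 0 passed the size rule, against 43.8% lower and 0.709% passing over all kept genes. Their median was 0.13, against 0.02 over all kept genes. These counts are close to the background.

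**Figure D4:**
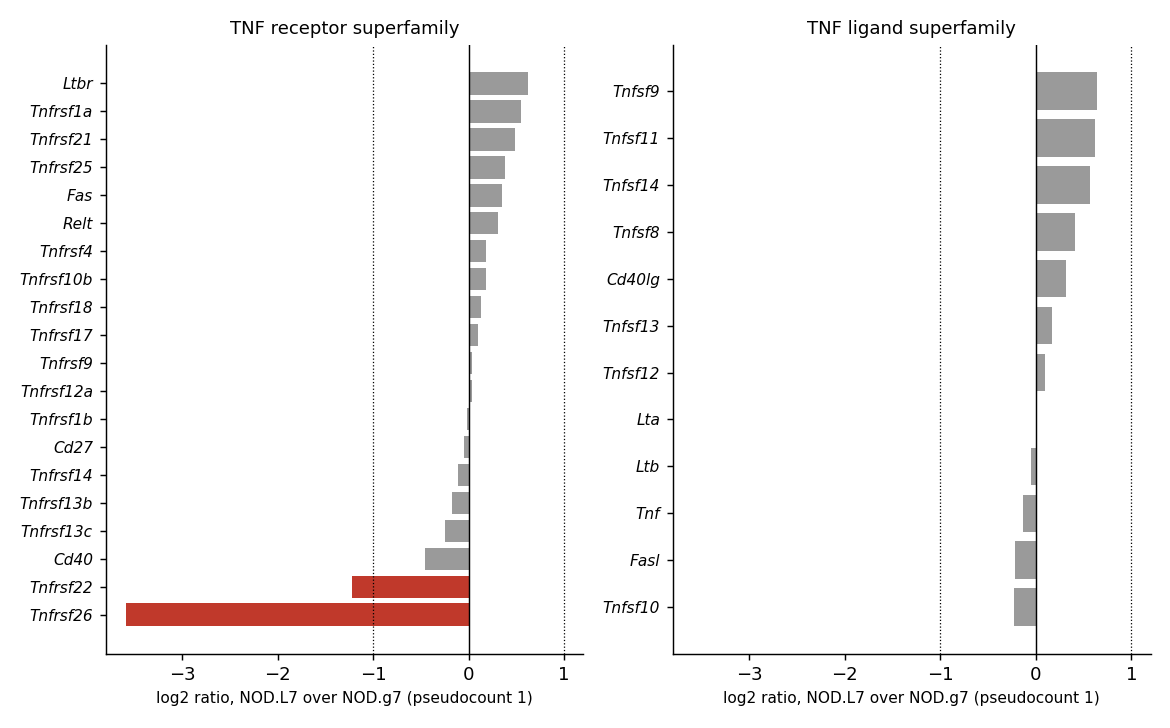
log2 ratio of NOD.L7 over NOD.g7 (pseudocount 1) for the kept genes of the TNF receptor superfamily (left panel) and of its ligands (right panel); Tnfrsf26 and Tnfrsf22 are red and dotted lines mark the size rule. Apart from these 2 the receptor ratios run from -0.46 to 0.62, and the ligand ratios from -0.23 to 0.64.

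Downstream of the death receptors, 31 of 33 listed signalling genes were kept and 0 passed the size rule, which 0.709% of all kept genes passed, so nothing about the list is read from that count. Of these 31, 20 were higher and 11 lower in NOD.L7, against 43.8% lower over all kept genes, and the median was 0.03, against 0.02. Fadd, the adaptor gene, also lies on chromosome 7, 892 kb distal to the cluster, and was at 5.82 in NOD.L7 and 6.84 in NOD.g7, the lowest ratio of the 31 at -0.20. Birc3, an inhibitor of apoptosis gene, followed at -0.14 and Traf5, a receptor adaptor gene, at -0.11. Casp8, the initiator caspase gene, was at 40.2 in NOD.L7 and 38.7 in NOD.g7. Among the highest ratios were those of Casp6 (0.20), a caspase gene, and of Ripk1 (0.16), a kinase gene of TNF receptor signalling, at 19.2 in NOD.L7 and 17.0 in NOD.g7.

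The libraries also differed in marker genes of spleen cell types, which stood beside the values of the 3 receptor genes. Over all kept genes, 43.8% were lower in NOD.L7 and 0.709% passed the size rule. All 8 measured erythroid markers were lower in NOD.L7, and 5 passed the size rule. Their summed RPKM was 43.4 in NOD.L7 and 109 in NOD.g7. All 7 natural killer cell markers were lower, with a sum of 113 in NOD.L7 and 232 in NOD.g7, and 2 passed. All 8 B cell markers were lower, with a sum of 2098 in NOD.L7 and 2615 in NOD.g7. The T cell markers summed to 910 in NOD.L7 and 893 in NOD.g7, and 4 of 8 were lower, near the share over all kept genes. All 8 red pulp macrophage markers and all 5 monocyte markers were higher, the macrophage markers with a sum of 527 in NOD.L7 and 323 in NOD.g7 and 2 passing, the monocyte markers with a sum of 161 in NOD.L7 and 114 in NOD.g7 and 1 passing. Of 8 neutrophil markers 6 were higher, with a sum of 1102 in NOD.L7 and 844 in NOD.g7, and 2 passed. No B cell or T cell marker passed. None of the markers above was listed at 0 in either library. Of the other lists, all 5 megakaryocyte and platelet markers were higher in NOD.L7. Dendritic cell markers were higher for 4 and lower for 3 of 7. Endothelium and stroma markers were higher for 3 and lower for 4 of 7 measured. In that list 1 marker was listed at 0 in NOD.L7 and another in NOD.g7. In whole spleen, fewer cells of a type and less RNA per cell cannot be told apart, and the part of cell composition in the values of the 3 receptor genes was not tested.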

How the data were processed

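Spleen RNA of 2 pooled samples, 1 per genotype, was extracted with RNeasy columns and made into TruSeq libraries, per the labels. The authors deposited 1 table of RPKM values per gene. The submitters' processing notes name CASAVA 1.8.2, SAMtools 0.1.18 and build mm9. How multiply matching reads were handled, which gene models were used and whether strand was kept is not stated in these sources, so reads common to Tnfrsf22 and Tnfrsf23 may have been dropped or assigned to either.

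Depth was recovered from 150 (NOD.L7) and 135 (NOD.g7) low values of single-exon genes, whose span in the table equalled that of their exon in GENCODE M21. All came out as whole bases within 0.15. Fragments were approximated from each RPKM with the length of the longest GENCODE transcript, taking 200 bases for a fragment. No count model was applied, and intervals cover counting error only. Log2 ratios used a pseudocount of 1. Coding sequences were aligned with Biopython 1.88 and mafft 7.526, and other calculations used Python 3.11.15, numpy 2.4.6, pandas 2.3.3 and scipy 1.17.1. The size rule, the depth recovery and the trimmed-mean factor described below were tested on simulated data, and the other calculations were not.

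The 3 genes and the gene lists were chosen with earlier results of these data known. Named genes were the 3 receptor genes and 6 genes tied to TRAIL or RANK (Tnfsf10, Tnfrsf10b, Tnfrsf11b, Tnfrsf11a, Tnfsf11 and Fadd). Also named were rows within 250 kb and kept rows within 1 Mb past the size rule. The 3 highest and 3 lowest kept genes of each list, and the 6 most like Tnfrsf26, were named too. A few items named in this way are not reported here. Further genes, such as Casp8, Cd81, Tspan32, Kcnq1, Ctrb1, Edar, Slc4a1 and Hba-a1, were named after their values were seen. The alternatives tried were a pseudocount of 0.1 or 0.5, keeping every row, keeping rows that reached an RPKM of 5, median centring, a trimmed-mean (TMM) factor that left out 30% of the ratios and 5% of the levels at each end, other fragment lengths and other distances.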

Additional observations from a re-analysis of the deposited data

How the results depend on the processing

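No paired analysis was possible because there was a single library of each genotype, and for the same reason no library could be left out. The 3 receptor genes were lower in NOD.L7 under every alternative run, but none of these runs was a test of the direction. Changing the pseudocount or the filter cannot turn a sign, and fragment length and distance do not enter the log2 ratio. Median centring took 0.02 from each log2 ratio and the TMM factor was 1.02, both too small to turn these ratios. The log2 ratios of Tnfrsf26, Tnfrsf22 and Tnfrsf23 were -6.79, -1.69 and -2.20 with a pseudocount of 0.1 and -4.52, -1.44 and -1.10 with 0.5, which by construction understate low genes less than the -3.58, -1.22 and -0.69 with 1. Median centring gave -3.60 for Tnfrsf26. Tnfrsf23 stayed out of the kept genes unless no filter was used, and Tnfrsf22 was not kept at a filter of RPKM 5. Genes past the size rule numbered 166 at the pseudocount of 0.1 (75 of them lower in NOD.L7), 124 (57 lower) at 0.5 and 52 (19 lower) at the filter of RPKM 5, which tests fewer genes, against 79 (36 lower); the share lower was then 36.5% against 45.6%. Other genes within 1 Mb past the rule numbered 2, but 1 at that filter, 1 within 0.5 Mb and 3 within 2 Mb. No receptor outside the cluster, ligand or signalling gene passed under any of these settings. With 100 or 300 bases per fragment the counting interval of the Tnfrsf23 fold was 0.0777 to 0.164 or 0.0561 to 0.213.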

Other observations

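Among the rows listed at 0 in NOD.L7 with the highest NOD.g7 values after Tnfrsf26 were genes of the exocrine pancreas, and 20 such genes were looked at as a group chosen after their values were seen. Of the 20, 18 were lower in NOD.L7, against 45% of all rows above 0 in either library, and 10 were listed at 0 in NOD.L7 and 1 in NOD.g7, against 25.8% and 26.3% of all rows. The choice of the group favours genes lower in NOD.L7. Ctrb1 was listed at 0 in NOD.L7 and at 0.667 in NOD.g7, Pnlip, the pancreatic lipase gene, at 0 in NOD.L7 and 0.568 in NOD.g7, and Cpa1, a carboxypeptidase gene, at 0 in NOD.L7 and 0.458 in NOD.g7. Other genes of the group were read in both libraries. Cela1, an elastase family gene, was at 2.65 in NOD.L7 and 2.29 in NOD.g7, and Ctrl, a chymotrypsin-like gene, at 1.34 in NOD.L7 and 1.40 in NOD.g7. The earlier marker list of pancreas and liver had 2 genes higher and 2 lower in NOD.L7 of 6 measured, with a summed RPKM of 4.02 in NOD.L7 and 3.71 in NOD.g7 and 3 genes listed at 0 in each library.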
